A study of Homo sapiens with 6 samples.

Results

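The DEAD and DEAH box RNA helicases were followed in IMR90 cells, fibroblasts grown from normal human lung, in which the RNA bound by miR-146a was purified. They were taken as the genes whose symbol in the deposited table was DDX or DHX with a number, leaving out DDX6, DDX58, DDX60 and DHX58. This gave 51 genes, 36 named DDX and 15 named DHX, of 18234 in the table. All 6 libraries came from cells infected with a retrovirus expressing RASV12, an oncogenic RAS form, kept in puromycin (1.5 ug/ml, 3 days), plated at day 10 and given, 24 hours after plating, a miR-146a mimic bearing psoralen and biotin. The Input group and the miR-CLIP group had 3 libraries each, lettered A to C in the table, and the miR-CLIP labels name an AGO2 antibody. In miR-CLIP, RNA held by AGO2 is immunoprecipitated, and RNA crosslinked to the mimic is then purified on streptavidin. One protocol text covers both groups, and the step at which Input RNA was set aside is not stated there. No uninfected, empty vector or unmodified mimic library was analysed here.

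DEAD and DEAH box proteins use ATP to open short RNA duplexes or to strip proteins from RNA, and are named after a run of amino acids in their ATP-binding core. DEAD box members mostly pry duplexes apart locally and clamp onto RNA, while DEAH box members move along a strand. Between them they take part in spliceosome rearrangement, the maturation of ribosomal RNA, mRNA export and the start of translation, and most are made in every cell. DDX5 and DDX17 also assist the enzyme that cuts microRNA hairpins.

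The mature miR-146a and the matches to its seed within helicase mRNAs are shown because the assay purifies RNA that pairs with this microRNA. Capitals mark bases 2 to 8 of the microRNA, the seed, and the complementary 7 bases AGTTCTC in the mRNAs.

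miR-146a-5p: uGAGAACUgaauuccauggguu
DHX8 coding sequence: gaagaacaacaAGTTCTCcaacccatggtg
DDX1 coding sequence, first match: gggacatgtcaAGTTCTCcaaaaatggaaa
DDX1 coding sequence, second match: aaaaggacaccAGTTCTCatgtgtttgtct
DHX30 coding sequence: actcatcaagcAGTTCTCagagaacattta
DHX29 coding sequence: aagcagctgagAGTTCTCattgattcagtt
DDX50 coding sequence: tggtgattcaaAGTTCTCctcctcaggatg
DDX49 coding sequence: gaagctggaggAGTTCTCcgtggaagaggc
DDX3X 3′ UTR of another isoform: gttttgatgacAGTTCTCttaaatctagca

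The microRNA sequence is from RefSeq (GRCh38.p14), and the mRNA windows are from GENCODE release 29 transcripts on GRCh38, read on the mRNA strand. The capitals lie at chr17:43521469-43521475 in DHX8, chr2:15604495-15604501 and chr2:15627075-15627081 in DDX1, chr3:47849204-47849210 in DHX30 and chr5:55259900-55259906 in DHX29, where the gene is on the minus strand. They lie at chr10:68934346-68934352 in DDX50, chr19:18927781-18927787 in DDX49 and chrX:41338717-41338723 in DDX3X. The second DDX1 match and those in DHX30 and DHX29 are followed by A, which makes them 8mer matches.

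Of the 50 protein-coding helicase genes, 10 held AGTTCTC in the longest coding sequence, or 20.0%, against 765 of 6297 tested coding genes, or 12.1%. Coding sequences of helicases were long, with a median of 2227 nucleotides against 1443. Among genes with coding sequences of 1875 to 2889 nucleotides, 6 of 24 helicases (25%) and 171 of 1143 tested genes (15.0%) held the 7 bases. The other coding matches were in DDX18, DDX51, DHX35 and DDX4. In the longest 3′ UTR of transcripts annotated as protein-coding, 1 of 50 helicases had a match, against 771 of the 6297 genes (12.2%). That gene was DDX49, and the match is the one shown above, which the longest coding sequence of DDX49 contains. DDX3X, DDX25 and DDX59 had a match in the 3′ UTR of some other protein-coding isoform. The share depended on the definition: over the 3′ UTRs of any annotated transcript, 7 of 50 helicases (14%) and 16.3% of the tested coding genes had a match. A match is a run of letters and not a measured site.

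The values are normalised read counts, each a whole number of reads times a constant of the library. The rows of the table held 9295325 to 12771968 reads in Input libraries and 6847837 to 9378463 in miR-CLIP libraries. At least 1 read was seen for 11930, 10905 and 10204 genes in Input A, B and C. For miR-CLIP A, B and C these were 8940, 11137 and 7329 genes. By this measure B was within the Input range, and A and C were below it. Its part in the differences between libraries was not tested. The libraries did not divide cleanly by label: the SD over well-measured helicases of the log2 difference from the Input mean was 0.32 in miR-CLIP B, against 0.72 in A and 0.65 in C, and 0.46, 1.02 and 0.99 over all genes measured as well. Results are therefore given with and without B. Whether the libraries of a group derive from separate cultures is not in the labels, so each p reflects library-to-library spread that may be purely technical. The 6 fibroblast markers COL1A1, COL1A2, COL3A1, DCN, FBN1 and FN1 summed to 108552 to 164330 normalised read counts in Input and 118119 to 142733 in miR-CLIP. The 6 epithelial markers summed to 1016 to 1362 and 536 to 2254, the 4 endothelial markers measured to 157 to 246 and 124 to 237, and the 4 blood markers measured to 7.81 to 25.1 and 9.29 to 41.3, with no marker at 0 in every library. Their part in the helicase values was not tested. Values are read counts scaled by a constant of the library, which is a relative measure. A change in the RNA of a gene and a change in the rest of the library thus cannot be told apart. Nor can fewer cells and less RNA per cell.

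Of the 51 genes, 45 had at least 10 normalised read counts in each of the 6 libraries. DDX12P, DDX43 and DDX47 were low but passed the filter of 1 or more in 3 or more libraries, so 48 were tested. DDX4 and DDX25, both known from germ cells, were not tested, and the Y-linked DDX3Y is not described. DDX43, another gene known from germ cells, had 2.45, 2.49 and 1.73 in Input and 0, 0.993 and 0 in miR-CLIP, with libraries in the order A to C here and throughout. It passed the filter through its Input values alone, so its groups had to differ. DDX47, a factor of ribosomal RNA maturation, had 3.67, 1.66 and 0.867 in Input and 7.23, 5.96 and 0 in miR-CLIP, and 36.5% of its annotated exon bases are shared with APOLD1 on the same strand. How reads in shared exons were counted is not known from the labels, so the level of DDX47 is uncertain. DDX12P, a pseudogene that closely resembles the DNA helicase gene DDX11, had 2.45, 2.49 and 1.73 in Input and 10.3, 2.98 and 0 in miR-CLIP. DDX11 had 50.8, 43.2 and 33.0 in Input and 67.1, 53.6 and 42.5 in miR-CLIP, with overlapping groups, and reads may be split between the gene and the pseudogene.

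In the Input transcriptome, levels per kilobase of the longest transcript spanned 260-fold among the 45 well-measured genes, with a median coefficient of variation over the 3 libraries of 15.2%. DDX5, a coactivator and splicing helicase, was first with 2635 ± 508 normalised read counts per kilobase (SD, n = 3), and DDX3X, which helps ribosomes start on structured mRNAs, followed with 1614 ± 262. Their Input libraries did not overlap on this scale. Before division by length the order was reversed, with Input means of 12060 for DDX3X and 9376 for DDX5, and their libraries overlapped. Per kilobase, DDX1, a subunit of the tRNA ligase complex, had 1031 ± 177, and DHX15, which takes spliceosomes apart, 969 ± 116. DDX21, a nucleolar helicase, had 946 ± 142, and these 3 differed by less than their spread. DDX17, a close relative of DDX5, had 811 ± 141, and DHX9, also called RNA helicase A, 796 ± 49.4. At the low end were DDX11 with 10.1 ± 2.14, DHX35, found in spliceosomes, with 33.4 ± 6.23, and DDX19B, which releases mRNA at the nuclear pore, with 35.1 ± 13.1. The last 2 differed by less than their spread. Part of DDX19A, DDX19B and DDX39B lies in annotated read-through genes on the same strand, which cover 23.8%, 15.7% and 29.7% of their exon bases, so their levels are uncertain.

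**Figure D1:**
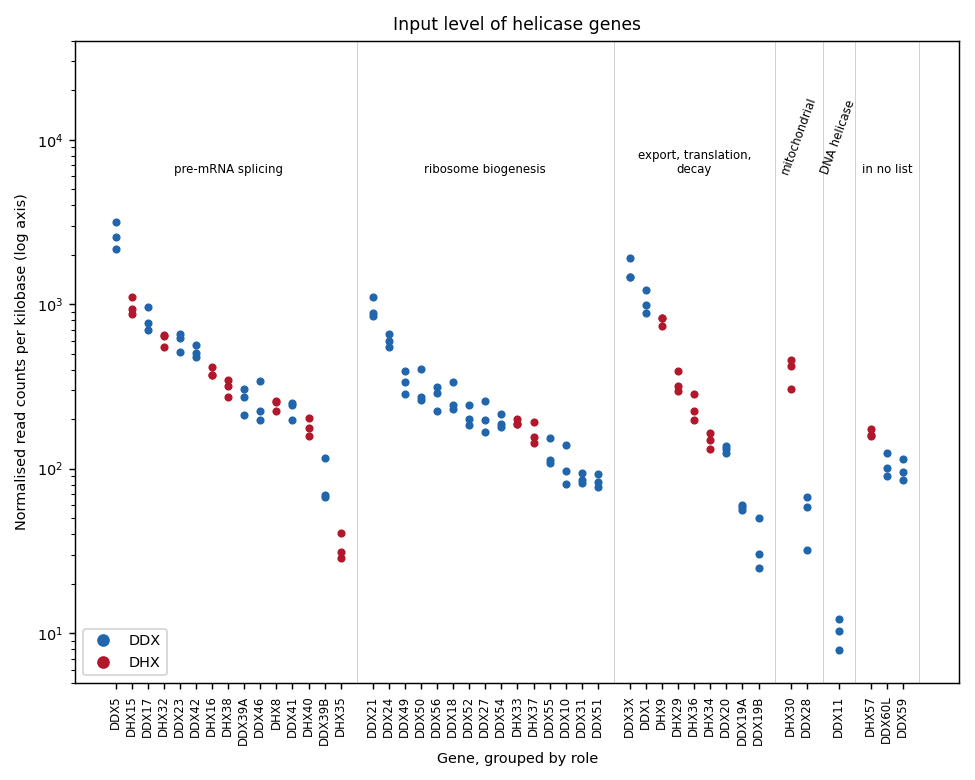
Input level of the 45 well-measured helicase genes, as normalised read counts per kilobase of transcript on a log axis, grouped by role and coloured by family, with a point for each of the 3 Input libraries. DDX5 at 2635 per kilobase and DDX3X at 1614 stand above the other genes, and DDX11 at 10.1 stands below them.

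The comparison of miR-CLIP with Input asks which RNAs were recovered with the microRNA. No helicase gene passed at adjusted p 0.05 in limma, as for all 8506 genes tested (0% higher and 0% lower), and the smallest limma adjusted p among them was 0.611. At an unadjusted p under 0.05, 3 of 48 were higher, DDX54, DHX8 and DDX23, and 0 were lower, against 2.40% and 4.04% of all genes tested. At an unadjusted p under 0.05, edgeR on the recovered reads gave 3 higher and 0 lower, against 4.21% and 2.37% of all genes. DESeq2 also gave 3 and 0, against 5.43% and 2.5%, and limma-voom 2 and 0, against 1.92% and 5.27%. None of these tools called a helicase at adjusted p 0.05, where DESeq2 called 0.0235% of all genes higher. In the authors' deposited table the same 3 genes had a p under 0.05, with ratios of 1.66 for DDX54, 2.09 for DHX8 and 1.65 for DDX23, and an adjusted p of 1, where 1.87% of all genes had such a p with higher and 0.944% with lower values. The median log2 fold change, miR-CLIP minus Input on log2(value + 1), was 0.26 over the 45 well-measured helicases, 31 positive and 14 negative, and 0.02 over the 5314 genes of the whole table measured as well. With correction for transcript length and GC content these medians were 0.04 and -0.07, and without miR-CLIP A the median of the 48 tested helicases went from 0.23 to 0.06. Library by library, the median difference from Input over these 45 was 0.47 (A), 0.07 (B) and 0.20 (C).

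The groups did not overlap for 9 of 48 helicases with higher miR-CLIP values, or 18.8%, against 5.64% of all genes tested. These were DHX8, DDX54, DDX23, DHX38, DHX34, DHX30, DDX24, DHX9 and DDX31. Each had at least 10 normalised read counts in every library, as did 5314 of the 8506 genes tested. The 5.64% also covers genes with lower values, and the share among the 5314 was not computed. With length and GC correction the log2 fold changes of the 9 genes, in the order named, were 0.60, 0.44, 0.60, 0.19, 0.19, 0.22, 0.027, 0.25 and -0.0044. Whether their groups overlap on corrected values was not computed. The only gene of the 48 with lower values in all 3 miR-CLIP libraries was DDX43, described above, against 7.34% of all genes. The members were chosen with earlier results of these data known, so the shares are a description.

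**Figure D2:**
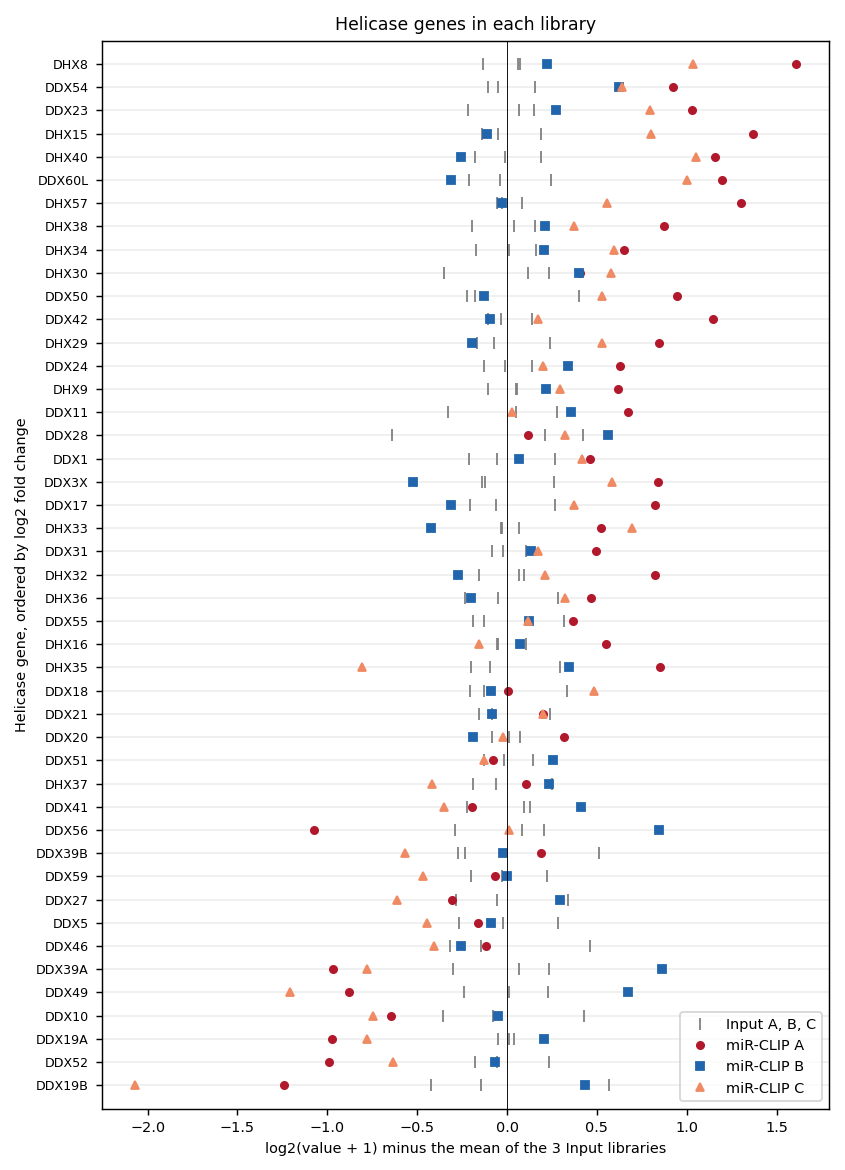
Each of the 45 well-measured helicase genes in each library, as log2(value + 1) minus the mean of the 3 Input libraries, ordered by log2 fold change, with ticks for Input libraries and symbols for miR-CLIP libraries. DHX8 is at the top with 1.61 (A), 0.22 (B) and 1.04 (C), and DDX19B at the bottom with -1.24, 0.43 and -2.07.

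The helicase with the highest log2 fold change belongs to splicing. DHX8 (chromosome 17, 43483865 to 43544463), which releases the finished mRNA from the spliceosome, had 1596, 1583 and 1387 normalised read counts in Input, against 4638, 1769 and 3113 in miR-CLIP. All miR-CLIP values were above all Input values, with B close to Input. Its log2 fold change was 0.96 ± 0.36 (SE), with a limma adjusted p of 0.611. DDX23 (chromosome 12, 48829764 to 48852842), which swaps U1 for U6 at the start of splicing, had 1664, 2026 and 2152 in Input and 3958, 2338 and 3363 in miR-CLIP. Again the groups did not overlap, and B was the lowest miR-CLIP library. The log2 fold change was 0.70 ± 0.28 (limma adjusted p 0.611). DHX15 had 2823, 2649 and 3328 in Input and 7531, 2698 and 5090 in miR-CLIP. A and C were above every Input library and B was within their range, and the log2 fold change was 0.68 ± 0.38. DHX38, which acts at the second chemical step of splicing, had 1251, 1593 and 1468 in Input and 2626, 1656 and 1850 in miR-CLIP. The groups did not overlap, and the log2 fold change was 0.49 ± 0.27. DHX16, which activates the assembled spliceosome, was at 0.16 ± 0.27, DDX41, also tied to splicing, at -0.05 ± 0.29 and DDX46, which acts when the branch site is chosen, at -0.26 ± 0.28. DDX42, also of the spliceosome, had 2080, 2181 and 2459 in Input and 4939, 2095 and 2521 in miR-CLIP, so only A stood well above Input. Over the 15 genes of the splicing list, 10 log2 fold changes were positive and 5 negative, with a median of 0.26 and medians by miR-CLIP library of 0.83 (A), -0.02 (B) and 0.17 (C).

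DDX5 and DDX17 are near relatives with overlapping roles. DDX5 had 7700, 9137 and 11291 in Input and 8295, 8717 and 6810 in miR-CLIP, so the groups overlapped, with a log2 fold change of -0.23 ± 0.28. DDX17 had 6234, 4479 and 4954 in Input and 9158, 4166 and 6687 in miR-CLIP, with B below all Input libraries, and a log2 fold change of 0.29 ± 0.34. Neither differed from Input beyond the spread between libraries, and the difference between the 2 genes was not tested. DDX39A, a helicase of mRNA export, had 518, 583 and 402 in Input and 253, 900 and 288 in miR-CLIP, and its relative DDX39B had 595, 345 and 355 in Input and 477, 411 and 281 in miR-CLIP. For DDX39A, B was above and A and C were below all Input libraries, while DDX39B had A and B within the Input range and C below it. Their log2 fold changes were -0.30 ± 0.48 and -0.13 ± 0.34.

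Ribosome biogenesis helicases lay on both sides of Input. DDX54 (chromosome 12, 113157174 to 113185479), a nucleolar helicase, had 818, 941 and 787 in Input and 1609, 1303 and 1320 in miR-CLIP. It had the smallest p of all helicases, and the 3 miR-CLIP libraries, B included, were close to each other and above all Input libraries. The log2 fold change was 0.73 ± 0.24 with a limma p of 0.0158 before adjustment and 0.611 after it. DDX24 had 3088, 3348 and 3712 in Input and 5218, 4265 and 3872 in miR-CLIP, groups that did not overlap, with a log2 fold change of 0.39 ± 0.25. DDX49 (chromosome 19, 18919675 to 18928633) had 645, 748 and 542 in Input and 347, 1020 and 276 in miR-CLIP. Here A and C were below, and B above, every Input library, so the log2 fold change of -0.47 ± 0.47 averages opposed values. DDX52 had 1170, 1275 and 1561 in Input and 667, 1265 and 853 in miR-CLIP, with A and C below Input and B within it, at -0.56 ± 0.30. DDX21 had 4066, 4287 and 5353 in Input and 5209, 4282 and 5211 in miR-CLIP, and its relative DDX50 had 688, 667 and 1029 in Input and 1500, 712 and 1125 in miR-CLIP. DDX21 overlapped in every library, and DDX50 was above Input in A and C only, with log2 fold changes of 0.11 ± 0.25 and 0.45 ± 0.34. The 16 genes of this list had a median of 0.12, 10 positive and 6 negative.

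**Figure D3:**
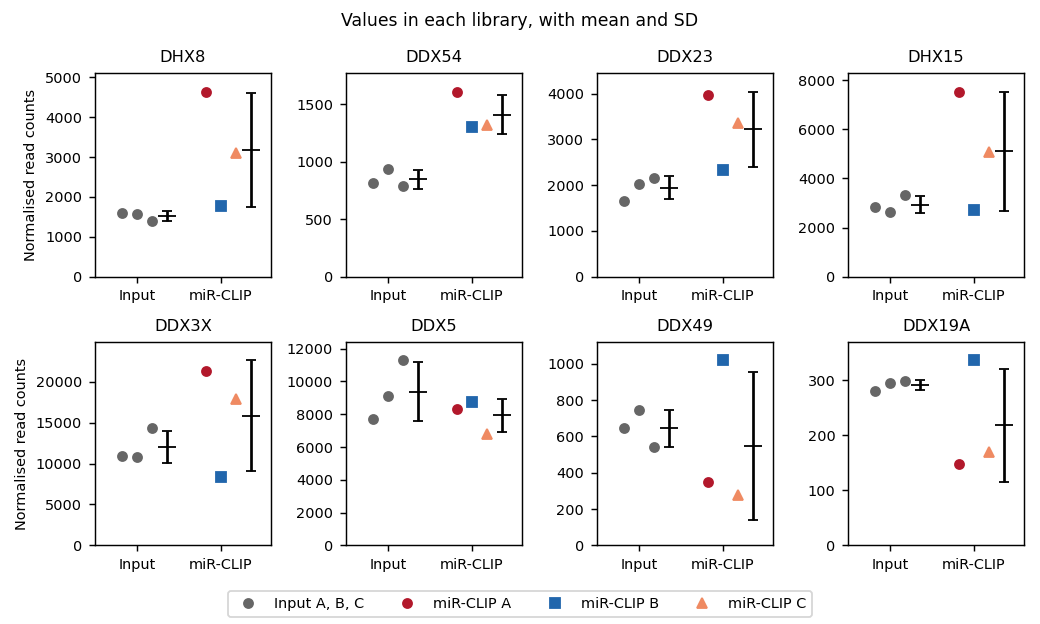
Normalised read counts of 8 helicase genes in each library, with bars at the mean ± SD of 3 libraries and axes from 0. For DHX8, DDX54 and DDX23 the groups do not overlap, while for DDX49 and DDX19A miR-CLIP B lies on the other side of Input from A and C.

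Among helicases of export, translation and decay, DDX3X (chromosome X, 41333348 to 41364472) had 10984, 10875 and 14320 in Input and 21392, 8315 and 17927 in miR-CLIP. A and C were above and B was below all Input libraries, and the log2 fold change was 0.30 ± 0.39. DHX9 had 3134, 3491 and 3502 in Input and 5180, 3918 and 4131 in miR-CLIP, groups that did not overlap, at 0.38 ± 0.25. DHX29, which helps the ribosome scan structured leaders, was at 0.39 ± 0.32, DHX34, a factor of nonsense-mediated decay, at 0.48 ± 0.26, DHX36, which opens G-quadruplexes, at 0.20 ± 0.28, and DDX1 at 0.32 ± 0.26. DHX34 had 654, 725 and 574 in Input and 1017, 749 and 980 in miR-CLIP, groups that did not overlap. The nuclear pore pair had negative log2 fold changes that did not pass the test. DDX19A had 281, 294 and 299 in Input and 148, 336 and 169 in miR-CLIP, and DDX19B had 84.5, 169 and 103 in Input and 47.5, 154 and 26.3. In both, A and C were below all Input libraries and B was above or within them. Their log2 fold changes were -0.52 ± 0.37 and -0.96 ± 0.65, and because their sequences are alike reads may be split between them. In mitochondria, DHX30, needed for the mitochondrial ribosome, had 1707, 1849 and 1233 in Input and 2085, 2076 and 2353 in miR-CLIP, which did not overlap, at 0.46 ± 0.26, and DDX28 was at 0.34 ± 0.40.

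MiR-CLIP library B was singled out after it was seen to lie nearest to Input. That choice used the values under test, so the calls and adjusted p without B are a description. Without miR-CLIP library B, limma called 11 of 48 helicases higher (22.9%) and 5 lower (10.4%) at adjusted p 0.05, against 12.6% and 16.1% of all genes tested. Among the 5314 genes with every value at least 10, 1043 were higher and 944 lower, against 11 and 5 of the 45 helicases. The 12.6% and 16.1% thus also cover genes with lower values than the helicases called. The helicases called higher were DHX8, DHX15, DHX40, DHX57, DHX33, DHX29, DHX34, DDX60L, DDX23, DDX54 and DDX3X, 7 DHX and 4 DDX genes. Those lower were DDX49, DDX52, DDX19A, DDX39A and DDX19B. DHX40 had 650, 580 and 749 normalised read counts in Input and 1466, 549 and 1363 in miR-CLIP, and DDX60L, a relative of the interferon-induced DDX60, 611, 689 and 839 in Input and 1622, 570 and 1419 in miR-CLIP. In both, B was below and A and C were above every Input library. DHX8 had a log2 fold change of 1.32 ± 0.21 and a limma adjusted p of 0.00361, DHX40 1.11 ± 0.18 and 0.00439, and DDX60L 1.1 ± 0.19 and 0.00589. DHX15 had 1.08 ± 0.21 and a limma adjusted p of 0.00907, and DDX23 0.91 ± 0.18 and 0.00936. Among those lower, DDX49 had -1.04 ± 0.22 (limma adjusted p 0.0111), DDX52 -0.81 ± 0.20 (0.0205) and DDX19B -1.66 ± 0.45 (0.0275). For 5 of these 16 genes the B value deviated from the Input mean in the direction of A and C. edgeR without B called 9 helicases higher (18.8%) and 6 lower (12.5%), against 11.7% and 15.8% of all genes tested. Of these helicase calls, 14 were shared with limma. Leaving out any other single library left 0 helicases called.

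**Figure D4:**
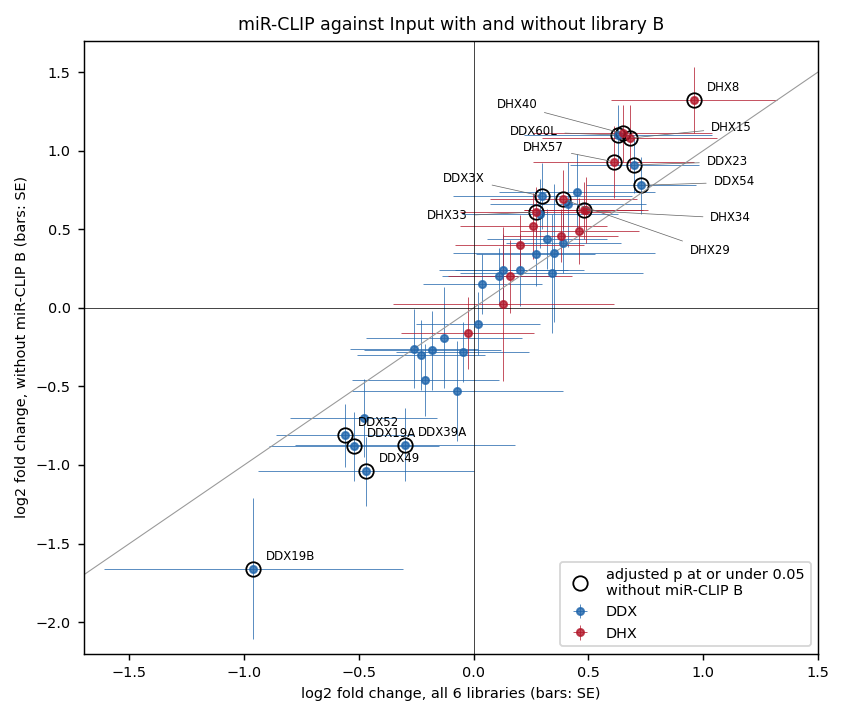
Log2 fold change of the 45 well-measured helicase genes with all 6 libraries (horizontal) and without miR-CLIP B (vertical), with SE bars, coloured by family and ringed where the limma adjusted p without B is at or under 0.05. The 11 ringed genes above 0 include 7 of the DHX family, and the 5 ringed genes below 0 are DDX genes. With length and GC correction, not drawn here, 2 DHX and 4 DDX genes were higher without B.

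In miR-CLIP A and C the DHX genes had higher median differences from Input than the DDX genes. Over 15 DHX genes the median log2 fold change was 0.39, 14 positive and 1 negative, with medians by miR-CLIP library of 0.83 (A), 0.07 (B) and 0.53 (C). Over 30 well-measured DDX genes it was 0.07, 17 positive and 13 negative, with 0.15, 0.10 and 0.02. The families had similar median transcript lengths, 4372 nucleotides for DHX and 4358.5 for DDX, but the DHX genes ran from 3028 to 6733 and the DDX genes from 1903 to 7473. With log2 values corrected for length and GC content the medians were 0.22 and -0.02, and without B as well 0.20 and -0.17. In that last setting 2 of the 15 DHX genes were called higher and 0 lower. Of the 30 DDX genes 4 were higher and 6 lower, and of all genes 6.49% and 15.7%. No test of the difference between the families was made. The 9 well-measured helicases with AGTTCTC in the coding sequence had a median log2 fold change of 0.32, 8 positive and 1 negative, and the 36 others 0.23, 23 positive and 13 negative. With length and GC correction the medians were 0.22 and 0.02, and the difference was not tested.

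Transcript composition went with the library differences. Across the 45 genes, which share libraries and are not independent replicates, the Spearman correlation of the difference from Input with GC content was 0.81 in miR-CLIP B, against -0.21 in A and -0.21 in C. With transcript length it was -0.47 in B, 0.12 in A and 0.18 in C. Over 5307 genes of the table with every value at least 10, the correlation with GC content was 0.51 in B, 0.04 in A and 0.07 in C, and with length -0.52, 0.45 and 0.36. The highest log2 differences from Input in B were 0.86, 0.85 and 0.67, in DDX39A (58.3% GC), DDX56 (55.9%) and DDX49 (61.7%). DDX39A and DDX49 are also short, at 1903 and 1912 nucleotides. The GC-rich DHX34 (61.5%), DHX37 (61.3%) and DDX51 (58.7%) were at 0.21, 0.23 and 0.26, and DDX3X (39.3%) was at -0.52. The part of length and GC content in the differences between libraries was not tested. After correction for length and GC content, without B, 6 helicases were higher (12.5%) and 6 lower (12.5%), against 6.49% and 15.7% of all genes. Among the 5307 genes with every value at least 10, 513 were higher and 1045 lower, against 6 and 6 of the 45 helicases. Of the 16 helicase calls without correction, 8 remained. DHX15 then had 1.72 with a limma adjusted p of 0.00273, DHX40 1.1 and 0.00337, DDX52 -1.24 and 0.00349, and DDX19A -1.40 and 0.00385. DHX8 did not pass, with 0.66 and a limma adjusted p of 0.0566, and DDX54 with 0.39 and 0.129. DDX1, DDX50, DDX10 and DDX27 passed only after the correction in the limma fits, and DDX10 also in edgeR without B.

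**Figure D5:**
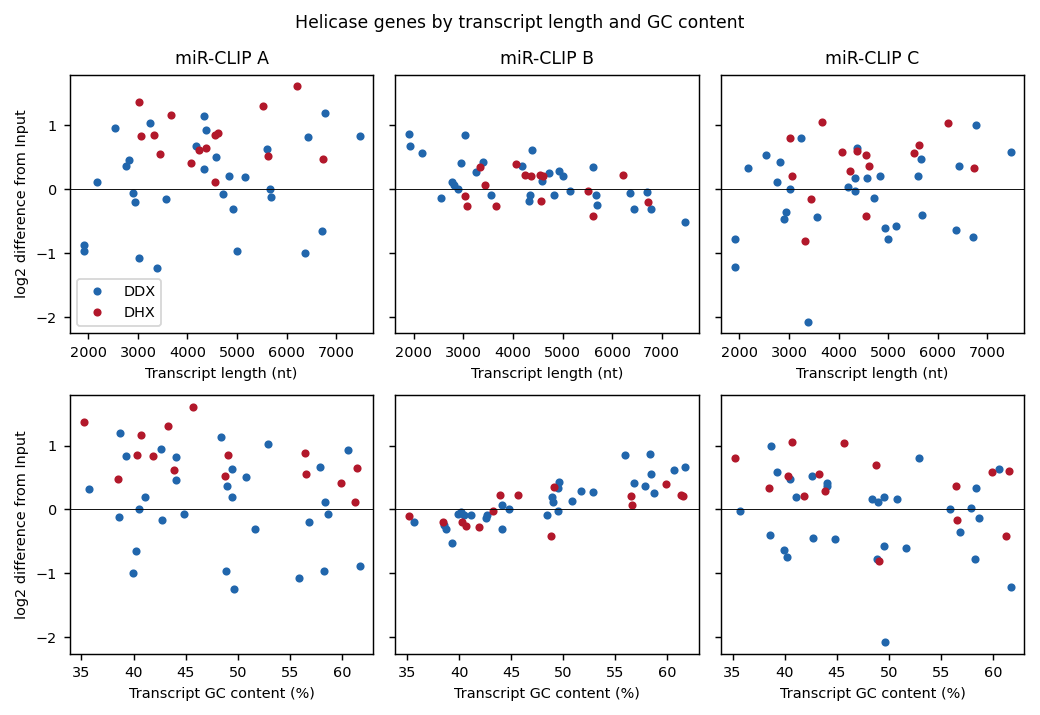
Difference of each miR-CLIP library from the Input mean (log2) against transcript length in nucleotides (top) and GC content in percent (bottom) for the 45 well-measured helicase genes, coloured by family. The points rise with GC content in miR-CLIP B, with a Spearman correlation of 0.81, and show no such slope in A and C, at -0.21 each.

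Related genes were read from lists chosen with earlier results known. Of 17 symbols listed for helicases with other names, 9 were in the table and 8 tested, and all 8 had positive log2 fold changes with a median of 0.60. They include EIF4A2, a DEAD box translation factor, with 2067, 1292 and 1881 in Input and 5323, 1558 and 2924 in miR-CLIP, at 0.76 ± 0.44. A and C were above Input and B within it. None passed with all 6 libraries. Without B, 5 were higher and 0 lower, against 12.6% and 16.1% of all genes tested. This list had a median transcript length of 8105 nucleotides, against 4372 for the 45 helicases. With length and GC correction its median was 0.24, and 2 were higher and 0 lower without B, against 6.49% and 15.7% of all genes. Of 36 helicase cofactors, 22 were in the table and tested, with a median of 0.13, 12 positive and 10 negative. Without B, 7 of the 22 cofactors were higher and 1 lower, against 12.6% and 16.1% of all genes tested. Among the 5314 genes with every value at least 10, 1043 were higher and 944 lower in that setting. With length and GC correction the cofactor median was -0.07. Without B as well, 3 were higher and 3 lower, against 6.49% and 15.7% of all genes. GLE1, which activates DDX19B at the nuclear pore, had 653, 715 and 770 in Input and 1233, 685 and 1247 in miR-CLIP, so A and C were above Input while those of DDX19B were below it. GLE1 had 0.52 ± 0.31 with all libraries and 0.80 ± 0.17 without B (limma adjusted p 0.0111). GPATCH4, a nucleolar G-patch protein, had 397, 559 and 625 in Input and 155, 662 and 149 in miR-CLIP. A and C were below, and B above, every Input library. Its log2 fold change was -1.06 ± 0.56 with all libraries (limma adjusted p 0.611) and -1.76 ± 0.25 without B (limma adjusted p 0.00251).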

How the data were processed

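Reads of 6 RNA-seq libraries, depleted of ribosomal RNA per the labels' protocols, were deposited as 1 signal value per gene and library. The library size factors were not refitted for limma. Every value was a whole multiple (tolerance 1e-06) of its column's smallest value above 0, the form of read counts divided by 1 size factor, and the authors also deposited a ratio (fold change) with its p-value, raw and adjusted. Per the submitters' processing notes, DESeq2 1.22.2, STAR 2.5.1b, Trimmomatic 0.35 and GRCh38 were used, listed there with no role or order. The counting program, strand setting and annotation release: not given in the sources used here. Limma-trend (limma 3.58.1, R 4.3.3) was run, two-sided, on log2(value + 1) for 8506 genes reaching 1 in 3 or more libraries, with group as the only term and Benjamini-Hochberg adjustment at 0.05. The pseudocount of 1 understates the change of low genes. edgeR 4.0.16 and DESeq2 1.42.0 were run on recovered reads. Transcripts, lengths and 3′ UTRs came from GENCODE 29, where 49 of 51 helicases had the coordinates of the table. Genes given by library were those highest per kilobase, with the smallest p, with groups that do not overlap or with a miR-146a match in the 3′ UTR, and paralogs. Other genes described here were chosen after their values were seen. The helicases and lists were chosen with earlier results of these data known.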

Additional observations from a re-analysis of the deposited data

How the results depend on the processing

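No helicase passed at adjusted p 0.05 in any of the alternatives with all 6 libraries, namely other pseudocounts and filters, upper-quartile factors, edgeR with either scaling, DESeq2, limma-voom, length and GC correction and the replicate block. With the column letter as a replicate block 0 genes passed, and the median of the helicases was 0.23. Same-letter deviations correlated at 0.14, 0.107 and 0.086 for A, B and C, each above the other letters, a hint from the data and not from the labels, which tie no letter to a replicate number. DESeq2 called 2 genes higher over the table. Leaving out 1 library gave 0 to 1069 genes higher and 0 to 1373 lower over the table, and 0 to 11 and 0 to 5 helicases, the upper ends all without miR-CLIP B. Without B, edgeR called 999 genes higher and 1345 lower (11.7% and 15.8%), and 9 and 6 helicases (18.8% and 12.5%). With the length and GC correction and without B, limma called 550 and 1327 genes (6.49% and 15.7%), and 6 and 6 helicases (12.5% each). These settings with B left out were chosen after seeing the data, and the cause was not tested. The median of all genes was -0.13 in limma, -0.034 in edgeR with TMM scaling and -0.016 in edgeR with DESeq2 size factors. For the helicases these medians were 0.23, 0.25 and 0.27. The helicase median was 0.06 without miR-CLIP A, 0.057 with length and GC correction and 0.027 with that correction and without B. A match to miR-146a was found in 11 helicases for the 6-mer (22%, against 33% of coding genes), in 7 for any 3′ UTR (14% against 16.3%) and in 4 for the longest 3′ UTR of any transcript type (8% against 13.8%), in place of 1 (2% against 12.2%).

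Log2 fold changes of single genes changed sign under some settings. DDX12P was -0.023 with a pseudocount of 0.5. DDX56 was 0.081 in edgeR and 0.10 in edgeR with DESeq2 factors and in DESeq2. DDX51 was -0.0048 in edgeR, -0.0059 in limma-voom and -0.20 in edgeR without B. With length and GC correction DHX33 was -0.09, DDX18 -0.00088, DDX17 -0.034, DDX31 -0.0044 and DDX51 -0.30, and without B as well -0.0077, -0.15, -0.051, -0.10 and -0.55, with DDX24 at -0.20, DHX35 at -0.11 and DDX21 at -0.091. Leaving out 1 library gave ranges of -0.68 to 1.07 for DDX12P, -0.042 to 0.30 for DDX18, -0.10 to 0.15 for DDX20, -0.87 to 0.04 for DDX39A, -0.30 to 0.12 for DDX39B, -0.28 to 0.11 for DDX41, -0.11 to 1.41 for DDX47, -0.10 to 0.089 for DDX51, -0.53 to 0.43 for DDX56, -0.043 to 0.31 for DHX16, -0.03 to 0.52 for DHX32, -0.23 to 0.60 for DHX35 and -0.16 to 0.17 for DHX37. Over all settings the limma, edgeR or DESeq2 adjusted p of DHX8 ran from 0.0018 to 0.884 and that of DDX54 from 0.0154 to 0.884. DDX47 and DDX12P had low values in every library, and their ranges were wide.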
